A study of Mus musculus with 4 samples.

Results

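The genes described here are 9 members of the Notch pathway measured in mouse splenic dendritic cells (DC): the ligand gene Jag1, the receptor genes Notch1 and Notch2, the protease gene Adam10, the γ-secretase subunit genes Psenen and Ncstn, the transcription factor gene Rbpj, and the target genes Hes1 and Dtx1. Every probe set that the platform annotation gives to exactly 1 of these symbols was taken, which gave 15 of the 22626 probe sets on the array that are not controls. They represent 9 of the 12393 genes that have a probe set with 1 symbol. The genes were chosen by symbol with the TCDD and DMSO values of these same 4 arrays already known, so their differences were part of the choice and are given as a description, without a test.

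The TCDD group consisted of 2 arrays of DC from female C57BL/6 mice aged 8 to 12 weeks, given 10 µg/kg TCDD in corn oil by intraperitoneal injection 24 h before the cells were isolated. TCDD is a dioxin and a strong ligand of the aryl hydrocarbon receptor (AhR), a transcription factor. The DMSO group consisted of 2 arrays of DC from mice of the same sex, strain and age, injected with the DMSO solvent in corn oil 24 h before isolation. The labels name no allele added to or deleted from the genome of these mice. Spleens from 3 mice per group were combined, and density centrifugation followed by magnetic sorting gave DC of more than 90% purity, so each array reads a pool of cells and animals. The labels call the arrays of a group biological replicates without saying whether each had its own mice, so the spread between arrays may be partly technical.

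Notch receptors are single-pass membrane proteins that are cut by ADAM10 once a ligand on a neighbouring cell, such as Jagged1, pulls on them. The γ-secretase complex, which contains nicastrin and PEN-2, the products of Ncstn and Psenen, then releases the intracellular domain. This domain enters the nucleus, joins the DNA-binding protein RBPJ and switches on targets such as Hes1 and Dtx1. In the mouse spleen, Notch2 and RBPJ in DC are required for a subset of CD11b+ conventional DC that carry the adhesion molecule ESAM. Deltex-1, the product of Dtx1, is a ubiquitin ligase that binds the intracellular domain of Notch, and its gene is a widely used Notch target in lymphocytes.

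RefSeq promoters (build GRCm38.p6, 250 bases before to 50 after a gene start) were given for 8 of the 9 genes, in 10 windows; Hes1 was not among them. They were searched on both strands for the RBPJ core TGGGAA, for the core of the dioxin response element GCGTG, to which activated AhR binds, and for CACGTG, a site that HES repressors can bind. The windows of 3 genes are shown. Dtx1 was taken because it had the largest difference among the members. Notch2 and Rbpj were taken because they encode the receptor and the DNA-binding partner that a subset of splenic DC requires. Capitals mark matches to TGGGAA or GCGTG on either strand, and the sequences run 5′ to 3′ in the direction of the gene.
Dtx1 (chr5:120711620-120711919, minus strand): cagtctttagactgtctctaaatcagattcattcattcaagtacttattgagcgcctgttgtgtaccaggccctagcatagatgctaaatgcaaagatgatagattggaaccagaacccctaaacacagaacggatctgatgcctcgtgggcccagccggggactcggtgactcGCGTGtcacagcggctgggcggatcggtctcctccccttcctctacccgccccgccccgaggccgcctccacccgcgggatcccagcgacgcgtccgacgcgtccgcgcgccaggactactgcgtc
Notch2 (chr3:98013288-98013587, plus strand): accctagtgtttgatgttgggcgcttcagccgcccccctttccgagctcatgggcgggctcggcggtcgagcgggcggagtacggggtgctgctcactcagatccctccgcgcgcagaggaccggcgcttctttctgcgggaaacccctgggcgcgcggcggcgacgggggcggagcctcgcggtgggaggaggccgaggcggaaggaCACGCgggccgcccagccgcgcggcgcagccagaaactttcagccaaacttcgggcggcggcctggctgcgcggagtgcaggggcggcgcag
Rbpj, upstream start (chr5:53590096-53590395, plus strand): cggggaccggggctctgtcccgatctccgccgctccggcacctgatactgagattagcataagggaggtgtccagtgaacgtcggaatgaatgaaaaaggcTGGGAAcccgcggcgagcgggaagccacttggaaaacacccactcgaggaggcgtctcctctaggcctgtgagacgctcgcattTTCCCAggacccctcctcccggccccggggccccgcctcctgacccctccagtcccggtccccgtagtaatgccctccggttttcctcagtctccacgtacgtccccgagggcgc

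The Dtx1 window held 1 GCGTG, starting at position -76 from the gene start, and no TGGGAA. The Notch2 window held 1 GCGTG, read on the opposite strand at -42, and no TGGGAA. The Rbpj window held 2 RBPJ cores, at -149 and, on the opposite strand, at -65, and no GCGTG. Among the 8 genes, GCGTG was found for 6 and TGGGAA for 2, Rbpj and Psenen. CACGTG was found for 1, Adam10. By window, GCGTG was present in 7 of the 10, TGGGAA in 3 and CACGTG in 1. Over all 32851 RefSeq promoter windows of this length, GCGTG was present in 32.4%, TGGGAA in 25.6% and CACGTG in 7.15%. GCGTG is short and rich in G and C, and matches are a description of letters only. The 3 motifs do not contain each other.

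Levels are given as log2 RMA values, and every difference below is the TCDD mean minus the DMSO mean on that scale, with the moderated standard error (SE) of limma and n = 2 arrays per group. Limma with Benjamini-Hochberg adjustment called 0 of the 22626 probe sets at an adjusted p under 0.05 (0%), with a smallest adjusted p of 0.349 and 2958 probe sets at an unadjusted p under 0.05. No Notch pathway probe set is therefore called. A probe set is termed dim below the level of 5.525, the 40th percentile of the array, where a difference need not show. Of the 15 member probe sets, 11 lay at or above that level.

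Facts of the arrays bear on all members. The TCDD values shifted with signal: for probe sets at DMSO levels of 8 to 9 the median against the DMSO mean was -0.25 (TCDD replicate 1) and -0.5 (TCDD replicate 2), and for those at 9 to 10 it was -0.3 and -0.55. Below 6 the 2 medians were 0.1 and 0. The ranges were set by the same DMSO mean that is subtracted, so range and difference are not independent. Ranges set by another mean were not tried. TCDD replicate 1 also differed in the Gapdh control, where the 3′ end exceeded the middle by 3.6, against 2.0 in TCDD replicate 2 and 1.5 and 2.1 in DMSO. Markers of neutrophils were higher in TCDD replicate 1, where the mean log2 level of 8 measured genes was 7.64, against 6.07 in TCDD replicate 2 and 6.21 and 5.84 in DMSO. In 3 of these 8 genes (37.5%) both TCDD arrays lay above both DMSO arrays, against 20.0% of all genes at 1 probe set per gene. In 0 both lay below, against 19.4%. The list was uneven: S100a8 had 10.3 in TCDD replicate 1, while Elane had 6.5 there and 6.6 in each other array. All 7 fixed DC genes lay above the dim level, as did all 9 macrophage genes and 6 of 7 B cell genes, so this level does not tell the cell types apart. Among the DC genes, the integrin gene Itgax had 9.1 and 9.4 in TCDD and 9.6 and 10.1 in DMSO. The mean level of the 7 was 9.93 and 10.3 in TCDD and 10.67 and 10.49 in DMSO. Of the 7, 3 (42.9%) were lower without overlap, against 19.4% of all genes, and 0 were higher, against 20.0%.

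Across the members, 1 gene stood apart: Dtx1 was lower in both TCDD arrays, at -1.35 and -0.95 against the DMSO mean. The remaining 14 probe sets lay between -0.45 and 0.60. In 13 of the 15 the difference was smaller than 0.5 in size. The median over the 15 was 0.05, against 0 over all probe sets, with 8 above 0 and 7 below. In 3 of 15 (20.0%) both TCDD arrays lay below both DMSO arrays, against 18.4% of all probe sets. In 2 of 15 (13.3%) both lay above, against 19% of all probe sets. These shares lie near those of the whole array. The split of all such probe sets, 49.1% below and the remainder above, moved to 65.2% below when each array was centred on its median.

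**Figure D1:**
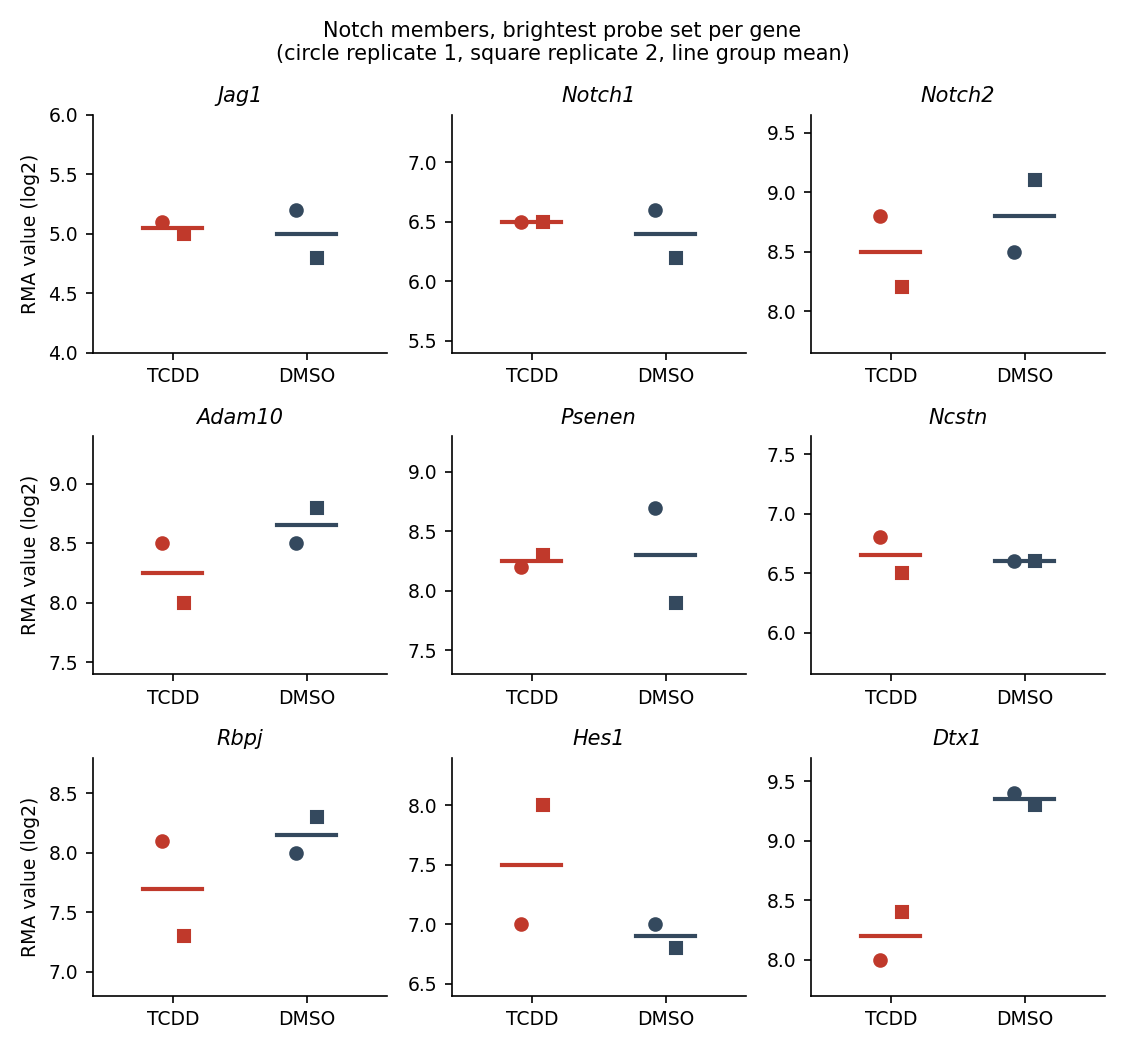
RMA value (log2, vertical axis, each panel spanning 2 units) of the brightest probe set of each of the 9 genes in TCDD (left, red) and DMSO (right, dark); circles are replicate 1, squares replicate 2, and lines the group means of 2 arrays. The Dtx1 values at 8.0 and 8.4 in TCDD lie below 9.4 and 9.3 in DMSO, and in the other 8 panels the groups overlap or share a value.

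Jag1, the ligand gene, was dim on both of its probe sets. The brighter one had 5.1 and 5.0 in TCDD and 5.2 and 4.8 in DMSO, so the groups overlap. The other had 4.7 and 4.6 in TCDD, against 5.0 and 5.0 in DMSO, a difference of -0.35 (SE 0.0744). The groups do not overlap there, but all 4 values sit in the lower part of the scale, and the sister probe set differed by 0.05 (SE 0.179).

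Notch1, the receptor gene best known from T cell development, had 6.5 and 6.5 in TCDD and 6.6 and 6.2 in DMSO on the brighter of its probe sets. The difference was 0.10 (SE 0.174). Both TCDD values fall inside the DMSO range. Its second probe set, on the dim limit, had 5.6 and 5.6 in TCDD and 5.4 and 5.5 in DMSO, a difference of 0.15 (SE 0.0744). The groups do not overlap by a margin of 1 rounding step of 0.1.

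Notch2 encodes the receptor that a subset of splenic DC depends on. On its bright probe set the gene had 8.8 and 8.2 in TCDD and 8.5 and 9.1 in DMSO. The groups overlap, and TCDD replicate 2 was the low array. The difference of -0.30 (SE 0.35) became -0.60 without TCDD replicate 1 and 0.00 without TCDD replicate 2, and 0.05 after quantile normalization. A dim probe set of the gene had 5.5 and 5.3 in TCDD and 5.2 and 5.1 in DMSO, with TCDD above and a difference of 0.25 (SE 0.11). The 2 probe sets thus pointed in opposite directions.

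The product of Adam10 cuts the receptor once a ligand pulls on it. On its bright probe set the gene had 8.5 and 8.0 in TCDD and 8.5 and 8.8 in DMSO. TCDD replicate 1 equalled DMSO replicate 1, and TCDD replicate 2 was lowest. The difference was -0.40 (SE 0.245), and -0.06 after quantile normalization. The gene was also read at lower signal, 0.20 (SE 0.143) on a probe set just above the dim level and -0.30 (SE 0.143) on a dim one. On the dim one the TCDD values of 4.3 and 4.0 lay below the DMSO values of 4.5 and 4.4.

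Psenen, which encodes the small subunit PEN-2 that completes γ-secretase, had 8.2 and 8.3 in TCDD and 8.7 and 7.9 in DMSO. The DMSO arrays spanned the TCDD arrays, and the difference was -0.05 (SE 0.333). Ncstn, which encodes the substrate-binding subunit nicastrin, had 6.8 and 6.5 in TCDD and 6.6 and 6.6 in DMSO, a difference of 0.05 (SE 0.137). For both subunits the difference was smaller than its SE, and an SE of 0.333 for Psenen leaves room for a sizeable change in either direction.

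Rbpj, the DNA-binding core of the Notch transcription complex, had 8.1 and 7.3 in TCDD and 8.0 and 8.3 in DMSO on its brighter probe set. TCDD replicate 1 lay within the DMSO range and TCDD replicate 2 below it. The difference was -0.45 (SE 0.353), and it was -0.05 without TCDD replicate 2. The second probe set had 6.8 and 6.2 in TCDD and 6.2 and 6.3 in DMSO, with a difference of 0.25 (SE 0.255), carried by TCDD replicate 1. It was -0.05 without that array.

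Hes1, which encodes a transcriptional repressor and is a standard Notch target, had 7.0 and 8.0 in TCDD and 7.0 and 6.8 in DMSO. Only TCDD replicate 2 was high, and TCDD replicate 1 equalled DMSO replicate 1. The difference of 0.60 (SE 0.419) was 1.1 without TCDD replicate 1 and 0.1 without TCDD replicate 2. This was the largest positive difference among the members, and it rests on 1 array. TCDD replicate 2 had the high Hes1 value and the lowest of the 4 values on the brightest probe set of Notch2, Adam10, Rbpj and Ncstn. The DMSO means of Notch2, Adam10 and Rbpj lay at 8 to 9, where the median of all probe sets in that array was -0.5 against the DMSO mean.

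Dtx1, the Deltex-1 gene, had 8.0 and 8.4 in TCDD, against 9.4 and 9.3 in DMSO, on its only probe set. Both TCDD arrays were low, and the gap between the nearest arrays of the groups was wider than the gap within either group. The difference was -1.15 (SE 0.179), or 0.451-fold. It was -0.95 without TCDD replicate 1 and -1.35 without TCDD replicate 2, and lay between those when a DMSO array was left out. After quantile normalization it was -0.78 and after cyclic loess -0.85. In the whole array 531 probe sets (2.35%) were lower without overlap by at least 1 on the log2 scale, and Dtx1 was the 1 member among them. After quantile normalization that number was 246, with 133 higher, against 90 higher without it, and Dtx1 no longer reached a difference of 1 in size; the same holds after cyclic loess and without TCDD replicate 1. Among the 951 probe sets with a DMSO level of 9 to 10, the range that holds Dtx1, 45.6% were lower in TCDD without overlap. Of these 951, 77 (8.1%) were at least as low as Dtx1. This range was set by the DMSO values that also enter the difference.

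**Figure D2:**
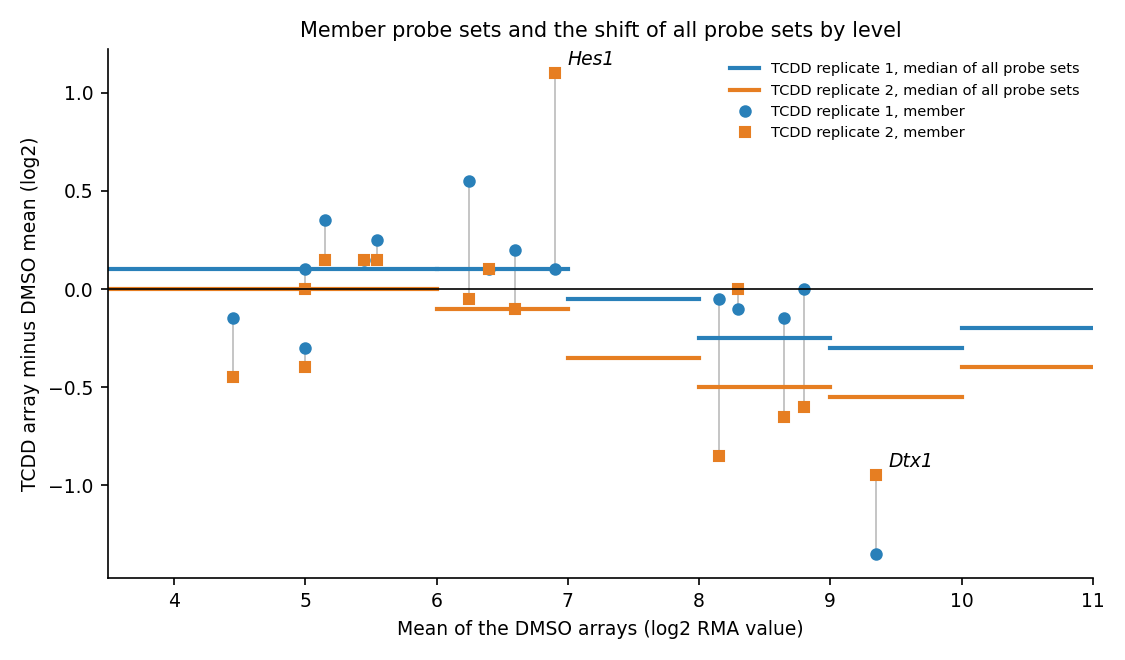
Each TCDD array minus the DMSO mean (log2, vertical axis) against the DMSO mean (log2 RMA value, horizontal axis) for the 15 member probe sets, with circles for TCDD replicate 1, squares for TCDD replicate 2 and horizontal lines for the median of all probe sets in each range of DMSO level. Both Dtx1 points, at -1.35 and -0.95, lie below the medians of -0.3 and -0.55 for their range, while on the brightest probe set of Notch2, of Adam10 and of Rbpj the circle lies above its median and the square below.

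Dtx1 is also expressed by other cells of the spleen, among them marginal zone B cells, so the level in a bulk preparation depends on its cells; fewer cells of a type and less RNA per cell cannot be told apart here. Of 7 measured B cell genes, 2 were lower in TCDD without overlap and 1 was higher. The mean level of the 7 was 6.13 and 5.80 in TCDD and 6.14 and 6.07 in DMSO. These are 28.6% lower and 14.3% higher, against 19.4% and 20.0% of all genes. Cd79a and Cd79b, which encode the partner chains of the B cell receptor complex, went opposite ways. Cd79b had 7.2 and 6.7 in TCDD and 7.7 and 7.4 in DMSO. Cd79a had 6.0 and 5.8 in TCDD and 5.4 and 5.5 in DMSO. Ms4a1, which encodes CD20, had 7.5 and 6.7 in TCDD and 7.6 and 7.8 in DMSO.

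Of 9 measured genes of type 2 conventional DC (cDC2), the class that includes the Notch2-dependent cells, 2 (22.2%) were lower without overlap, near the 19.4% of all genes, and 0 were higher. Sirpa, the surface receptor used to sort these cells, had 8.1 and 8.4 in TCDD and 9.2 and 9.4 in DMSO, a difference of -1.05 (SE 0.159). Its 2 other probe sets differed by -0.15 and 0.15. Klf4, which encodes a factor that cDC2 need, had 7.4 and 8.2 in TCDD and 8.7 and 9.0 in DMSO. Its other probe set had 5.9 and 5.2 in TCDD and 5.7 and 5.3 in DMSO, with overlap. Esam, the marker of the Notch2-dependent cells, had 7.4 and 7.3 in TCDD and 7.4 and 7.3 in DMSO, a difference of 0.00 (SE 0.0848). Cd4, which many of these cells carry in mouse spleen, had 7.1 and 7.0 in TCDD and 7.1 and 7.0 in DMSO. The cDC2 mean was 6.64 and 6.89 in TCDD and 7.16 and 7.06 in DMSO. The part that cell composition or the 3′ gap of TCDD replicate 1 had in the Dtx1 difference was not tested, and without that array the Dtx1 difference was -0.95.

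Genes of type 1 conventional DC were lower without overlap in 4 of 8 and those of macrophages in 6 of 9, with 0 higher in either list. Over all genes 19.4% were lower without overlap and 20.0% higher. Over probe sets at a DMSO level of 9 to 10, a range that holds only some of these genes, 45.6% were lower. The mean levels were 7.44 and 7.49 in TCDD and 8.05 and 8.07 in DMSO for type 1 conventional DC. For macrophages they were 8.32 and 8.41 in TCDD and 9.06 and 9.04 in DMSO. Of other cells that could carry Notch genes, T cell genes were higher without overlap in 1 of 5 and lower in 0. Endothelial and stromal genes, from cells that make ligands, were higher in 2 of 8 and lower in 0. The genes that were higher in these lists, Cd3g, Pdgfra and Pdgfrb, were all dim. Plasmacytoid DC genes were without overlap in 0 of 5, natural killer cell genes were lower in 1 of 5, and erythroid genes were higher in 2 of 3. Limma called 0 genes in each of these lists.

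The probe sets most like Dtx1 over the 4 arrays were found by the Euclidean distance between values centred on each probe set's own mean, among 12450 probe sets of other genes at or above the dim level. The nearest 5 belonged to Prkcb (distance 0.0866), Nras (0.1), Cdkn2aipnl (0.1), Slc46a3 (0.141) and Vcp (0.141), with differences from -1.05 to -1.15. With 4 arrays such likeness describes little more than lower values in both TCDD arrays.

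**Figure D3:**
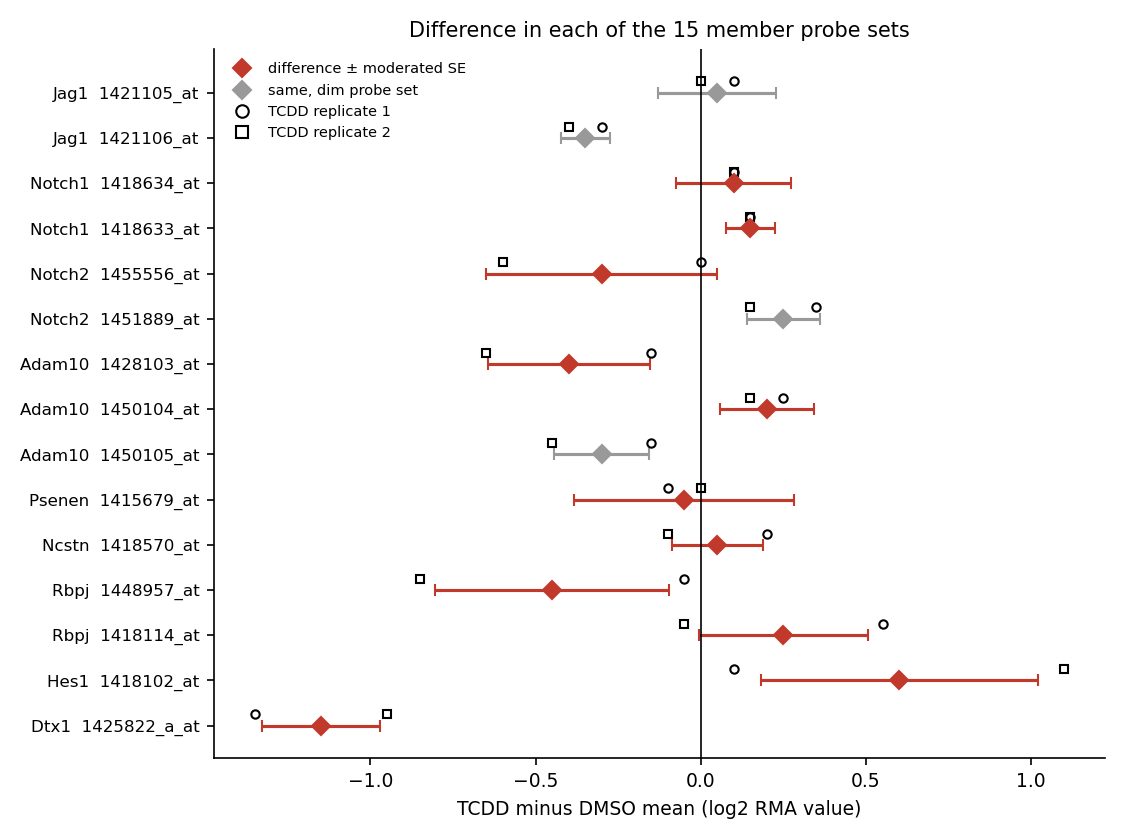
TCDD minus DMSO (log2 RMA value, horizontal axis) in each of the 15 member probe sets, ordered by role; diamonds with bars are the difference ± the moderated SE (n = 2 arrays per group), grey where the probe set is dim, and small open symbols are the single TCDD arrays against the DMSO mean. In 4 of the 5 genes with more than 1 probe set the signs were mixed.

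Probe sets of 1 gene disagreed in sign in 4 of the 5 genes that had more than 1: Notch2, Rbpj, Jag1 and Adam10. Notch1 was the exception. In Notch2, Rbpj and Adam10 the brightest probe set was lower in TCDD, and a less bright one was higher. Over 7 alternatives of scaling and of arrays left out, 9 of the 15 probe sets kept the sign of their difference and 6 did not. Those 6 included the brightest probe sets of Notch1, Notch2, Psenen and Ncstn.

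Beyond these 9 genes, 56 further genes of the pathway had been listed by role, and 46 of them were measured. Limma called 0 of the 46. Without overlap, 9 (19.6%) were higher in TCDD and 6 (13.0%) lower, against 20.0% and 19.4% of all 12393 genes at 1 probe set per gene. Their median difference was -0.025, against 0 for all genes. Each value below is that of the gene's brightest probe set.

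In γ-secretase, the scaffold gene Aph1a had 8.4 and 8.7 in TCDD and 7.6 and 7.4 in DMSO, a difference of 1.05 (SE 0.159). Both TCDD arrays were higher. Another bright probe set of Aph1a went the other way, with 7.2 and 7.0 in TCDD and 8.2 and 7.2 in DMSO, and a further one differed by 0.10. Psen2, a gene for the catalytic subunit, had 6.0 and 6.0 in TCDD and 6.1 and 5.6 in DMSO. The 4 measured subunit genes therefore held 1 gene without overlap, on 1 of its 3 probe sets.

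Among genes for the receptor's sugars, Poglut1, which encodes an O-glucosyltransferase acting on Notch, had 7.3 and 7.1 in TCDD and 8.0 and 8.0 in DMSO, a difference of -0.80 (SE 0.102). Lfng, which encodes the Lunatic fringe enzyme that tunes the choice of ligand, had 6.9 and 7.2 in TCDD and 6.7 and 6.6 in DMSO, a difference of 0.40 (SE 0.143). The groups do not overlap in either gene. Mfng, Rfng and Pofut1 each differed by 0. Another bright probe set of Rfng and a dim one of Pofut1 were each higher by 0.20 without overlap.

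Among ligands, Dll4 had 6.6 and 6.7 in TCDD and 6.5 and 6.4 in DMSO, a difference of 0.20 (SE 0.0848). Its other probe set, also above the dim level, was higher without overlap by 0.55 (SE 0.267). The other 4 measured ligand genes lay between -0.15 and 0.05. A dim probe set of Jag2 was higher by 0.40 without overlap. Of the receptors, Notch4 had 5.7 and 5.6 in TCDD and 5.8 and 5.9 in DMSO, and Notch3 differed by -0.05. The protease gene Adam17 differed by -0.40 (SE 0.341) with overlapping groups. None of the 3 measured ligand ubiquitin ligase genes was without overlap.

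Among partners of RBPJ, the coactivator genes Maml2 and Kat2a were higher without overlap, by 0.40 and 0.45. Further probe sets of Kat2a were higher by 0.15 and 0.25, with overlap. Maml1 differed by -0.40, with 6.6 and 6.2 in TCDD and 6.9 and 6.7 in DMSO. Another probe set of Maml1, at the same mean level, differed by -0.10, with overlap. Kat2b differed by -0.60 (SE 0.355), with 8.5 and 8.0 in TCDD and 8.5 and 9.2 in DMSO, so the groups share a value. A dim probe set of Kat2b was higher by 0.40. Among corepressors, Spen had 7.0 and 7.1 in TCDD and 6.6 and 6.0 in DMSO, a difference of 0.75 (SE 0.255). Ctbp1 had 9.2 and 9.0 in TCDD and 9.8 and 9.5 in DMSO, a difference of -0.55 (SE 0.159). Hdac2, which encodes a histone deacetylase, had 5.0 and 4.6 in TCDD and 5.9 and 7.2 in DMSO, a difference of -1.75 (SE 0.556). The DMSO arrays were themselves far apart.

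Among genes that act on receptor turnover, the Deltex relative Dtx2 had 8.3 and 8.6 in TCDD and 8.1 and 7.8 in DMSO, a difference of 0.50 (SE 0.183), the opposite sign to Dtx1. Its other probe set differed by 0.30 (SE 0.3). Fbxw7 encodes the ubiquitin ligase subunit that marks the intracellular domain for destruction. The gene had 6.7 and 6.5 in TCDD and 7.0 and 7.2 in DMSO, a difference of -0.50 (SE 0.131). Another bright probe set of Fbxw7 differed by -0.30 (SE 0.3), with overlap.

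Of the 8 other target genes, 2 were higher without overlap and 0 lower. Over all genes at 1 probe set per gene, 20.0% were higher without overlap and 19.4% lower. With 8 genes, such counts do not set the targets apart from all genes. Hey1, a repressor related to Hes1, had 7.0 and 6.9 in TCDD and 6.7 and 6.4 in DMSO, a difference of 0.40 (SE 0.143). Ptcra, the pre-T cell receptor chain, had 6.2 and 6.1 in TCDD and 5.9 and 5.7 in DMSO, a difference of 0.35 (SE 0.11). The target with the largest remaining size was Hes5 at -0.30, and Nrarp, a feedback inhibitor, differed by 0.15. Another bright probe set of Nrarp differed by -0.25, with overlap. None of the 8 had a difference as large in size as that of Dtx1.

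**Figure D4:**
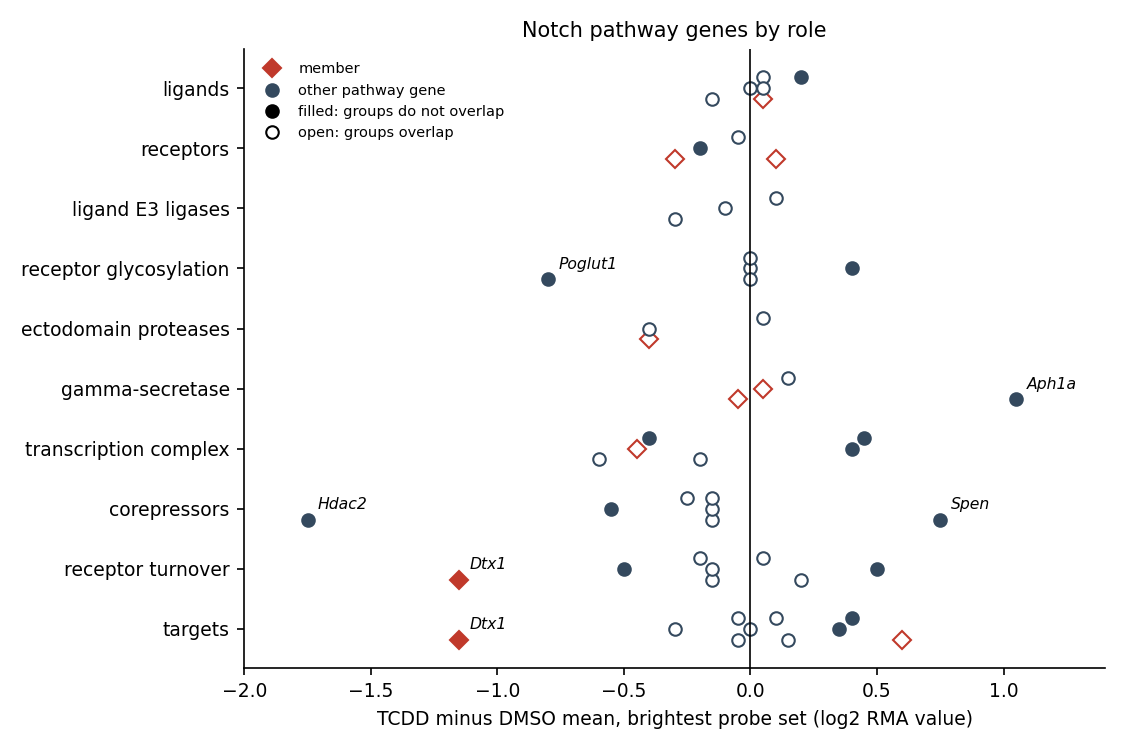
TCDD minus DMSO (log2 RMA value, horizontal axis) of the brightest probe set of each measured pathway gene, by role (vertical axis); red diamonds are members, dark circles other genes, and filled symbols mark groups that do not overlap. Dtx1, drawn in both of its roles, stands at -1.15, while Hdac2 at -1.75 and Aph1a at 1.05 are the outermost of the other genes.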

How the data were processed

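Total RNA of sorted splenic DC was amplified and hybridised to Affymetrix mouse arrays, 1 per sample. The authors deposited log2 values made with RMA, as the submitters' processing notes name it; this method subtracts background, equalizes the arrays by quantiles and combines the probes of a probe set. At the level of probe sets the deposited arrays were not equal. Their highest values were 14.5 and 14.1 in TCDD and 14.3 and 14.4 in DMSO. A further quantile normalization of the probe sets moved the Dtx1 difference from -1.15 to -0.78. The sources used here do not name the software. Values are rounded to steps of 0.1. Arrays give no counts, so their number limits the precision. Of 22690 probe sets 64 controls were left out. The annotation gives 20380 of the remaining probe sets 1 symbol, 691 several and 1555 none. All 15 member probe sets matched RefSeq by gene ID.

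TCDD was compared with DMSO by limma 3.58.1 in R 4.3.3 (lmFit, eBayes, two-sided, Benjamini-Hochberg over 22626 probe sets, threshold 0.05), tested on simulated data with known changes. The smallest p of an exact permutation test on 4 arrays is 0.333, so none was run. Groups do not overlap where both TCDD arrays lie on 1 side of both DMSO arrays. The members, the lists and the tests were chosen with earlier results of these data known. Every member probe set was to be named, with up to 4 other pathway genes per role by size of difference and the 5 probe sets most like the member of largest difference; a gene on a list is represented by its brightest probe set. Alternatives were other scalings, removal of dim probe sets, a replicate block, a trended robust prior, no moderation, a threshold of 0.10 and leaving out each array. The crossed block was added after the data were seen. The labels do not say that a replicate number pairs arrays. Figures were drawn with matplotlib 3.10.9.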

Additional observations from a re-analysis of the deposited data

How the results depend on the processing

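Limma called 0 probe sets, and 0 of the other pathway genes, under every alternative run: quantile normalization, median centring, cyclic loess, dim probe sets removed, the replicate block, the crossed block, the trended robust prior, no moderation, a threshold of 0.10 and each array left out. At an unadjusted p under 0.05 there were 1275 to 5733 probe sets over these settings, the lowest without moderation, where the 741 probe sets with no spread could not be tested, and the highest without TCDD replicate 1.

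Without overlap, 3 member probe sets were lower and 2 higher in TCDD. Median centring gave 4 lower and 1 higher. Over all probe sets it gave 24.6% lower and 13.2% higher, against 18.4% and 19% without it. Removal of dim probe sets, which leaves fewer to count, gave 1 lower and 1 higher. Over all probe sets kept there, 24.1% were lower and 15.9% higher. With the replicate block, where both same-numbered pairs must share a direction, 3 members were lower and 3 higher. Of the other pathway genes 11 were lower and 11 higher, and of all probe sets 23.4% were lower and 23.5% higher. Replicate 1 minus 2 correlated at -0.189 between the groups, a single value that does not decide a pairing. The crossed block gave 6 lower members and 3 higher, with 26.4% lower and 24.5% higher over all probe sets. With 1 array left out, groups are separate more easily: lower members ranged from 3 to 7 of 15 and higher ones from 2 to 7. Over all probe sets the lower share ranged from 23.7% to 45.3%, highest without TCDD replicate 1, where 7 members were lower, and the higher share from 24.8% to 40.8%. The other pathway genes, 6 lower and 9 higher, became 17 higher under quantile normalization, 14 higher under cyclic loess and 10 lower under median centring. Over all probe sets quantile normalization gave 21.1% higher, cyclic loess 22.4% higher and median centring 24.6% lower. Counts of the other pathway genes are out of 46, each at its brightest probe set, with 43 at or above the dim level. The shares over all probe sets include many dim ones, so the sets are not alike. The other pathway genes ranged from 7 to 22 lower and from 10 to 19 higher with 1 array left out. The causes of these shifts were not tested. Dtx1 stayed between -1.35 and -0.78 under the 7 alternatives of scaling and of arrays left out. What limits all of this is the number of arrays, 2 per group.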
